A study of Mus musculus with 2 samples.

Results

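Egr1, Egr2, Egr3, Nr4a1, Nr4a3 and Myc, 6 immediate early transcription factor genes taken by name from the 32285 genes of the table, were followed through colon immune cells of 5XFAD mice and their WT littermates. 5XFAD is a transgenic mouse model of Alzheimer disease whose transgenes are driven by the neuronal Thy1 promoter, and the WT littermates lack them. All mice were female and 9 months old, and live CD45+ cells, the surface mark of leukocytes, were sorted from enzymatically dissociated colon. Cells of 3 mice were pooled into 1 droplet single-cell library per genotype, so each value below describes 1 library. The 5XFAD library held 3443 cells with 18604847 unique molecular identifiers (UMIs, counted transcripts) and the WT library 3443 cells with 17939499 UMIs. Each cell carried the number of its deposited cluster, 0 to 16, and no cell type name.

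Immediate early genes are transcribed within minutes of a stimulus, without new protein synthesis. In lymphocytes, signalling from the antigen receptor through MAP kinases and calcium induces the EGR zinc-finger factors and the NR4A orphan nuclear receptors, and Nr4a1 transcription is a widely used readout of antigen receptor signalling. EGR2 and EGR3 restrain T cell activation as well as taking part in it, NR4A factors limit responses under persistent antigen, and MYC drives ribosome building, metabolism and growth in activated lymphocytes. The same genes also answer growth factors, cytokines, heat and tissue handling in many cell types.

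RefSeq promoter windows of GRCm38.p6, from 250 bases before to 50 bases after an annotated start, are given for Egr2, Nr4a1 and Nr4a3 and not for Egr1, Egr3 and Myc. Of several windows of a gene, the one nearest its GENCODE start is given. They are shown to set the Egr2 letters beside those of the Nr4a genes. The windows are chr10:67535249-67535548 for Egr2, chr15:101266596-101266895 for Nr4a1 and chr4:48045055-48045354 for Nr4a3, plus strand, 5′ to 3′. Capitals mark an E-box in Egr2, TGACG cores of the cAMP response element (read as CGTCA on the other strand) in both Nr4a windows, and in Nr4a1 also an EGR site (CGCCCCCGC).
Egr2: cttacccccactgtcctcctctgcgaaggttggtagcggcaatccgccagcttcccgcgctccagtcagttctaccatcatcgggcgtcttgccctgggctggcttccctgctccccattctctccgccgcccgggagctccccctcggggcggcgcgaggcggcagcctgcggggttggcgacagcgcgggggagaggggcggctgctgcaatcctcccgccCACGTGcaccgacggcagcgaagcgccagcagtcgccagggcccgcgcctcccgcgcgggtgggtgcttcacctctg
Nr4a1: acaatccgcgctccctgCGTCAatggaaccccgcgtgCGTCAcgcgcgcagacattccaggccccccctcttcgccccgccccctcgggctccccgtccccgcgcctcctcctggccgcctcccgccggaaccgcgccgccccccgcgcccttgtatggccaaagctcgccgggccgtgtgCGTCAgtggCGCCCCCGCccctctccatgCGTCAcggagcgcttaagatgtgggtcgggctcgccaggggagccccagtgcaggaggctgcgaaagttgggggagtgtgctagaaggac
Nr4a3: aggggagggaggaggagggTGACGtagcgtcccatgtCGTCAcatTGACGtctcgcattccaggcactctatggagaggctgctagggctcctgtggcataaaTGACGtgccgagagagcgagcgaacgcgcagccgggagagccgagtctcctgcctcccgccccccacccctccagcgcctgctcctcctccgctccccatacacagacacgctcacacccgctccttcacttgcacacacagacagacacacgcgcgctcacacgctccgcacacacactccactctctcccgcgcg

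Each Nr4a window held 4 TGACG cores, and the Egr2 window held none. Among 32851 RefSeq windows of 300 bases, searched on both strands, 20.8% held at least 1 TGACG and 0.231% (76 windows) held 4 or more. The core was chosen after the windows had been read, so the count is a description. The complete element TGACGTCA, which holds a TGACG on each strand, was in 1.79% of windows and in none of the 3 shown. The EGR site GCGNGGGCG was in 5.55% of windows and, among these 3, in Nr4a1. The E-box CACGTG, the core that MYC binds with MAX, was in 7.15% of windows and, among these 3, in Egr2. The NR4A element AAAGGTCA was in 1.51% of windows and the serum response element core in 1.63%, and neither was found in the 3. The start site of the Nr4a1 window lies 12577 bases downstream of the GENCODE gene start. A match describes letters and not a bound site, and these letters were not linked to any value below.

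The loci of the 6 genes were read from the GENCODE annotation of GRCm38, all on the plus strand. Egr1 spans positions 34859823 to 34864984 of chromosome 18, Egr2 67535475 to 67542188 of chromosome 10 and Egr3 70077203 to 70082614 of chromosome 14. Nr4a1 spans 101254269 to 101274795 and Myc 61985391 to 61990374 of chromosome 15, and Nr4a3 spans 48045153 to 48086447 of chromosome 4.

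Levels are given as CPM, the count of UMIs scaled to 1000000 UMIs of the summed cells, and genotypes are compared as the log2 ratio of 5XFAD over WT. With 1 library per genotype no test between genotypes was possible. The 95% intervals, given in brackets, cover counting error only and neither differences between mice nor between preparations. A ratio was formed where a gene had at least 50 UMIs over both libraries. Differences between clusters are described without a test, because the clusters were made from the same expression values.

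Clusters were read from marker lists and their leading genes. Clusters 0 to 5 were B cell-like, with 7 of 7 B cell markers detected in both libraries. Cluster 6 was led by Ighg2b, Jchain and Igha and also held 7 of 7 B cell markers. Cluster 7 held 7 of 7 B cell markers, with a summed level of 3776 CPM in 5XFAD and 4812 CPM in WT, but was led by Egr2, Egr1, Egr3 and Myc themselves. By the same lists cluster 8 was regulatory T cell-like and cluster 10 T cell-like. Cluster 13 was gamma delta T cell-like, and clusters 9, 12 and 16 were innate lymphoid, namely ILC2-like, NK cell or ILC1-like and ILC3-like. Clusters 11 and 14 were led by Klra6 and Klra7 and by Dapl1 and Lef1. Cluster 15 mixed macrophage, epithelial and stromal or endothelial markers, although CD45+ cells had been sorted. The libraries shared 3 cell barcodes. No 5XFAD cell and 106 WT cells had 2500 or more genes, and the largest numbers were 2498 in 5XFAD and 2697 in WT.

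**Figure D1:**
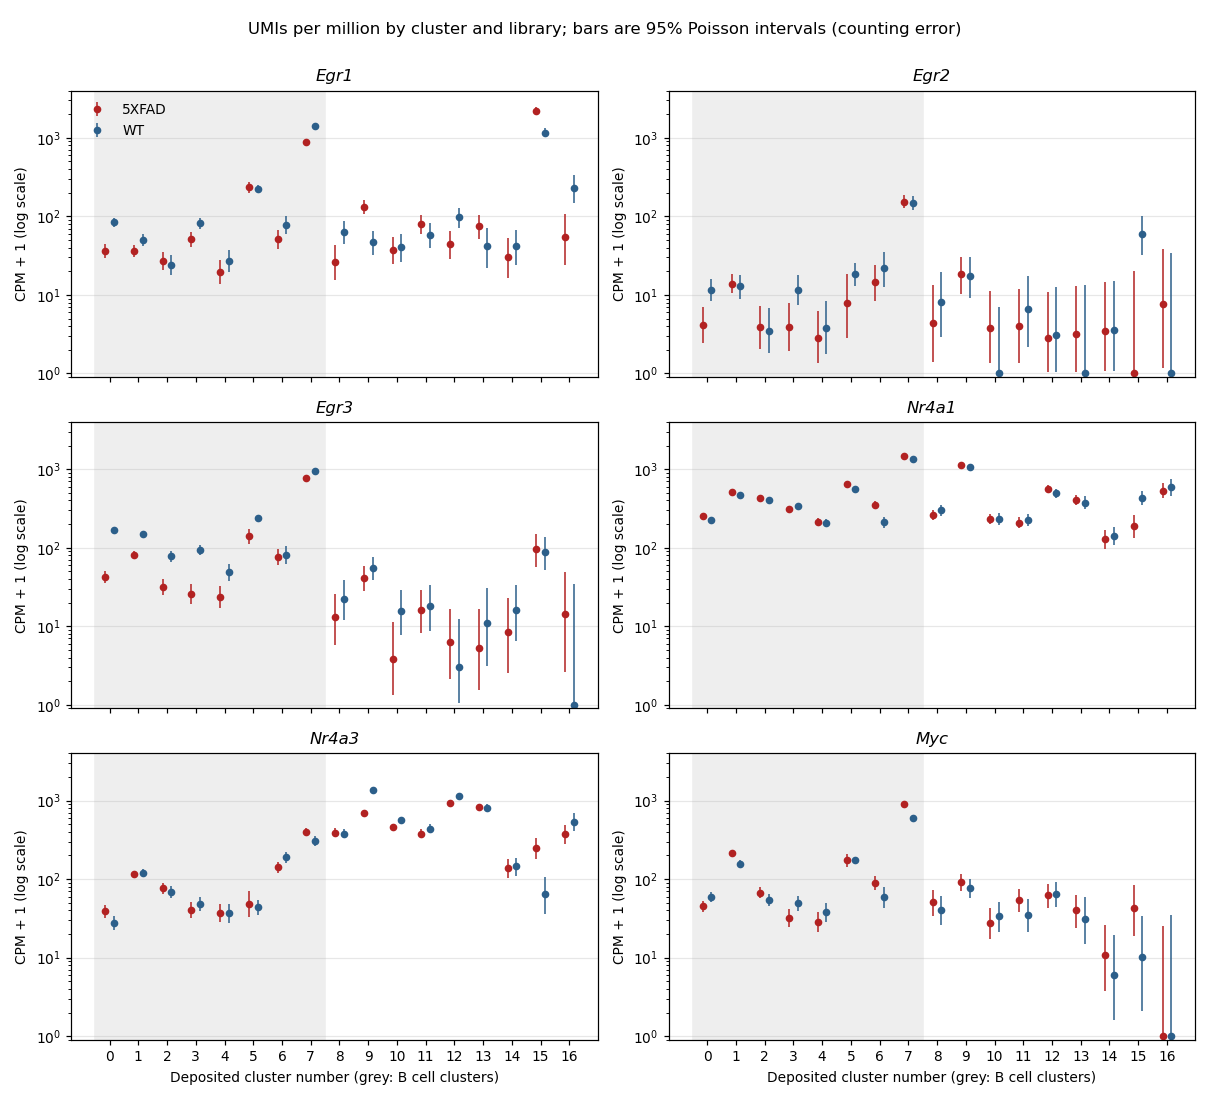
Level of each gene (CPM + 1, log axis) in deposited clusters 0 to 16 (grey, clusters 0 to 7 with B cell markers) in the 5XFAD library (red) and the WT library (blue), with 95% Poisson intervals of counting error. Egr2, Egr3, Nr4a1 and Myc peak in cluster 7, Egr1 in clusters 15 and 7, and Nr4a3 in clusters 9, 12 and 13, where WT exceeds 5XFAD in cluster 9.

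The 3 Egr genes were concentrated in cluster 7. This cluster held 126 cells in 5XFAD and 126 in WT, 3.66% of each library. It carried 33.3% of all Egr1 UMIs in 5XFAD and 37.5% in WT, 50.2% of Egr2 UMIs in 5XFAD and 36.7% in WT, and 41.5% of Egr3 UMIs in 5XFAD and 24.9% in WT. For Myc the shares were 30.4% in 5XFAD and 22.8% in WT. The Nr4a genes were spread more widely, with 13.2% (5XFAD) and 12.1% (WT) of Nr4a1 UMIs and 7.84% (5XFAD) and 5.5% (WT) of Nr4a3 UMIs in this cluster.

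Egr1, whose product activates early response genes after antigen receptor and growth factor signals, was at 883 CPM (5XFAD) and 1403 CPM (WT) in cluster 7, against 43.0 CPM in 5XFAD and 80.7 CPM in WT clusters 0 to 5. Only cluster 15 had a higher mean of both, with 2213 CPM (5XFAD) and 1168 CPM (WT). Those 2 clusters stood apart from the rest, and cluster 5 came next with 234 CPM (5XFAD) and 225 CPM (WT). Every other cluster lay between 18.7 CPM (cluster 4) and 131 CPM (cluster 9) in 5XFAD and between 23.2 CPM (cluster 2) and 228 CPM (cluster 16) in WT. The 228 CPM of cluster 16 rested on 17 cells, of which 1 carried 64.0% of the UMIs. The 17 clusters were ranked by their mean of both libraries. Here and for the other genes, neighbours overlapped where the ranges between their 5XFAD and WT values did, counting error aside. This was so for 14 of the 16 neighbouring pairs.

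Egr2, a factor of lymphocyte activation and of later restraint, had its highest level in cluster 7. It reached 152 CPM in 5XFAD and 149 CPM in WT cluster 7, against 5.81 CPM in 5XFAD and 9.71 CPM in WT clusters 0 to 5. Outside cluster 7 the highest value was 58.8 CPM in WT cluster 15, from 13 UMIs in 5 cells, where the 5XFAD library had 0 UMIs. In clusters 10 to 14 the gene had 0 to 3 UMIs per library, so its levels there were not resolved. Neighbouring clusters overlapped in 14 of 16 pairs.

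Egr3, which is induced together with Egr2 and limits T cell responses, followed the B cell clusters. It reached 768 CPM in 5XFAD and 936 CPM in WT cluster 7, and by the mean of both libraries clusters 5 and 1 came next, with 141 and 80.4 CPM in 5XFAD and 240 and 147 CPM in WT. In WT alone cluster 0 (167 CPM) was above cluster 1, and in 5XFAD alone cluster 15 (94.4 CPM) was. The lowest mean was in the NK cell or ILC1-like cluster 12, with 5.37 CPM in 5XFAD and 2.06 CPM in WT. There 2.94% of 5XFAD cells and 1.14% of WT cells had an Egr3 UMI, at median depths of 5402 and 5546.5 UMIs. No cell type here is known to lack these genes, so that share serves as the lowest observed and not as a measured background of free RNA. Neighbouring clusters overlapped in 13 of 16 pairs.

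Nr4a1, encoding the nuclear receptor NUR77, was detected in every cluster. It was highest in cluster 7, with 1475 CPM in 5XFAD and 1335 CPM in WT, and in the ILC2-like cluster 9, with 1139 CPM in 5XFAD and 1080 CPM in WT. The lowest level was in cluster 14, with 126 CPM in 5XFAD and 141 CPM in WT. Clusters 7 and 9 were separated from each other and from all others by their intervals in both libraries. By the ranges between library values, 9 of 16 neighbouring pairs overlapped over all clusters.

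Nr4a3, a close relative of Nr4a1, had its highest levels in lymphocytes other than B cells. The NK cell or ILC1-like cluster 12 had 921 CPM in 5XFAD and 1137 CPM in WT, the ILC2-like cluster 9 had 694 CPM in 5XFAD and 1358 CPM in WT, and the gamma delta T cell-like cluster 13 had 828 CPM in 5XFAD and 805 CPM in WT. Cluster 7 had 393 CPM in 5XFAD and 306 CPM in WT, close to the regulatory T cell-like cluster 8 with 387 and 378 CPM. Cluster 14, outside the B cell-like clusters, was low, with 136 CPM in 5XFAD and 144 CPM in WT. That was below cluster 6, with 141 and 188 CPM. Clusters 0 to 5 had 66.4 CPM in 5XFAD and 57.3 CPM in WT when summed, and 10 of 16 neighbouring pairs overlapped. Clusters 8 to 14 and 16, summed as T and innate lymphoid clusters, carried 64.2% of Nr4a3 UMIs in 5XFAD and 70.8% in WT, but 4.41% (5XFAD) and 3.08% (WT) of Egr3 UMIs.

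Myc, the growth regulator, reached 911 CPM in 5XFAD and 590 CPM in WT cluster 7. Cluster 1 came next, with 213 CPM in 5XFAD and 156 CPM in WT, followed by cluster 5 with 173 and 172 CPM. Cluster 1 was led by Olfr889, Srm, Zfp870 and Nop16, of which Srm and Nop16 are genes of polyamine synthesis and of ribosome building. Every other cluster was below 100 CPM in both libraries, and no Myc UMI was counted in the 25 cells (5XFAD) and 17 cells (WT) of cluster 16. Neighbouring clusters overlapped in 13 of 16 pairs.

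Relative to clusters 0 to 5 of the same library, cluster 7 was higher for all 6 genes. Egr2 was 26.2-fold higher in 5XFAD and 15.4-fold in WT, Egr1 20.5-fold in 5XFAD and 17.4-fold in WT, and Egr3 15.2-fold in 5XFAD and 6.89-fold in WT. Myc was 9.37-fold higher in 5XFAD and 6.63-fold in WT, Nr4a3 5.92-fold and 5.33-fold, and Nr4a1 3.94-fold and 3.69-fold. These folds come from genes that helped to define the cluster and are a description. Of all genes measured, 3.20% in 5XFAD and 2.89% in WT were at least 2-fold higher in cluster 7. Among 17 antigen receptor induced genes, 13 in 5XFAD and 12 in WT passed that size, with median log2 differences of 1.95 in 5XFAD and 1.24 in WT. Nfkbid and Bcl2a1b of this list were themselves among the leading genes of cluster 7. The list was also chosen with earlier results of these data known, so its count is a description too. Among 20 MYC target genes 1 in 5XFAD and 2 in WT did, with medians of 0.59 in 5XFAD and 0.45 in WT. Of heat shock genes none did, with 7 measured in 5XFAD and 9 in WT.

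Single cells were compared after each was thinned to 3000 UMIs, which left 3383 5XFAD cells and 3319 WT cells. In cluster 7, 4 or more of the 6 genes were detected together in 57.3% of 124 5XFAD cells and 57.7% of 123 WT cells. Any Egr gene was detected in 83.1% (5XFAD) and 86.2% (WT) of these cells. The intervals of 5XFAD and WT overlapped for both measures. Without thinning, 73.8% of 5XFAD and 70.6% of WT cells in this cluster had 4 or more. Across clusters 0 to 5, 2.62% of 2327 5XFAD cells and 3.26% of 2454 WT cells had 4 or more, or 5.71% and 7.21% without thinning.

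**Figure D2:**
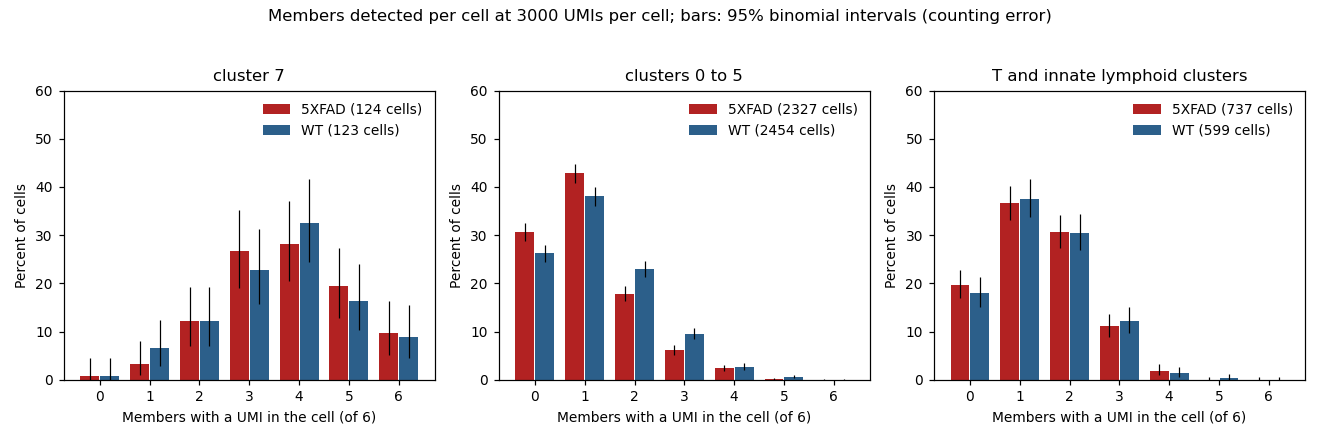
Percent of cells (y axis) with a UMI of 0 to 6 of the genes (x axis) after thinning to 3000 UMIs per cell, in cluster 7, in clusters 0 to 5 and in the T and innate lymphoid clusters, for 5XFAD (red) and WT (blue) with 95% binomial intervals. In cluster 7 the most frequent number is 4 in both libraries, and elsewhere it is 1.

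Some pairs of the genes were detected together more often in cells of clusters 0 to 5 summed. In 5XFAD, Egr3 was detected in 28.5% of cells with Egr1 and in 10.3% of those without it. In WT the corresponding shares were 48.4% and 24.1%. Myc was detected in 65.7% of the 35 5XFAD cells with Egr2 (interval 47.8 to 80.9) and in 16.01% of those without, and in 36.2% of the 58 WT cells with Egr2 (24.0 to 49.9) and 17.5% of those without. The shares for Nr4a3 ran in opposite directions in the libraries, a difference that was not tested. It was detected in 21.5% of 5XFAD cells with Egr1 (15.1 to 29.1), against 14.6% without, and in 10.3% of WT cells with Egr1 (7.12 to 14.2), against 12.7% without. In cluster 7 the same pair gave 55.9% of 68 cells with and 58.9% without in 5XFAD, and 34.6% of 78 cells with and 55.6% without in WT. In cluster 5 alone, Egr3 was in 34.6% of 26 5XFAD cells with Egr1 and 24.2% without, and in 51.9% and 39.6% in WT. For Myc with and without Egr1 the cluster 5 shares were 23.1% and 25.3% in 5XFAD and 33.3% and 25.6% in WT. The summed clusters differ in level, and the part of this in the shares was not tested.

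The comparison of 5XFAD with WT asked how these activation genes differ in colon immune cells of mice that model amyloid disease. In clusters 0 to 5 summed (2364 cells in 5XFAD and 2538 in WT) the 3 Egr genes were lower in 5XFAD. The other 3 genes were close to level or slightly higher. The median log2 ratio of all 9681 genes was -0.12, with 61.9% of genes below 0. Of the 6 genes 3 were below 0, which is no larger a share than that background. Egr3 was the only one lower by at least 1 on the log2 scale, 1 of 6 against 3.89% of all genes, and none was higher by that much, against 0.806% of all genes.

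Egr1 had 533 UMIs in 213 of 2364 5XFAD cells and 1023 UMIs in 419 of 2538 WT cells. Its level was 43.0 CPM in 5XFAD and 80.7 CPM in WT, a log2 ratio of -0.91 (-1.06 to -0.75). The cells with a UMI held about equally many, 2.50 per cell in 5XFAD and 2.44 in WT, and the share of such cells was lower in 5XFAD at 9.01%, against 16.5% in WT. Egr2 had 72 UMIs in 5XFAD and 123 in WT, 5.81 CPM against 9.71 CPM (-0.74, -1.18 to -0.31). For Egr3 16.9% of 5XFAD cells and 36.1% of WT cells had a UMI, or 11.4% of 5XFAD and 27.2% of WT cells after thinning.

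Nr4a1 was level, with 374 CPM in 5XFAD and 362 CPM in WT (0.05, -0.01 to 0.11). Nr4a3 had 66.4 CPM in 5XFAD and 57.3 CPM in WT (0.21, 0.07 to 0.36), and Myc had 97.2 CPM in 5XFAD and 88.9 CPM in WT (0.13, 0.01 to 0.25). Relative to the median of all genes these 3 ratios become 0.17, 0.34 and 0.25. After thinning, any Egr gene was detected in 16.8% of 5XFAD cells (15.3 to 18.3) and 34.4% of WT cells (32.6 to 36.4). An Nr4a gene was detected in 61.8% of 5XFAD cells (59.8 to 63.8) and 57.7% of WT cells (55.8 to 59.7). Without thinning the Egr shares were 23.4% (5XFAD) and 43.6% (WT) and the Nr4a shares 75.2% (5XFAD) and 70.1% (WT).

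**Figure D3:**
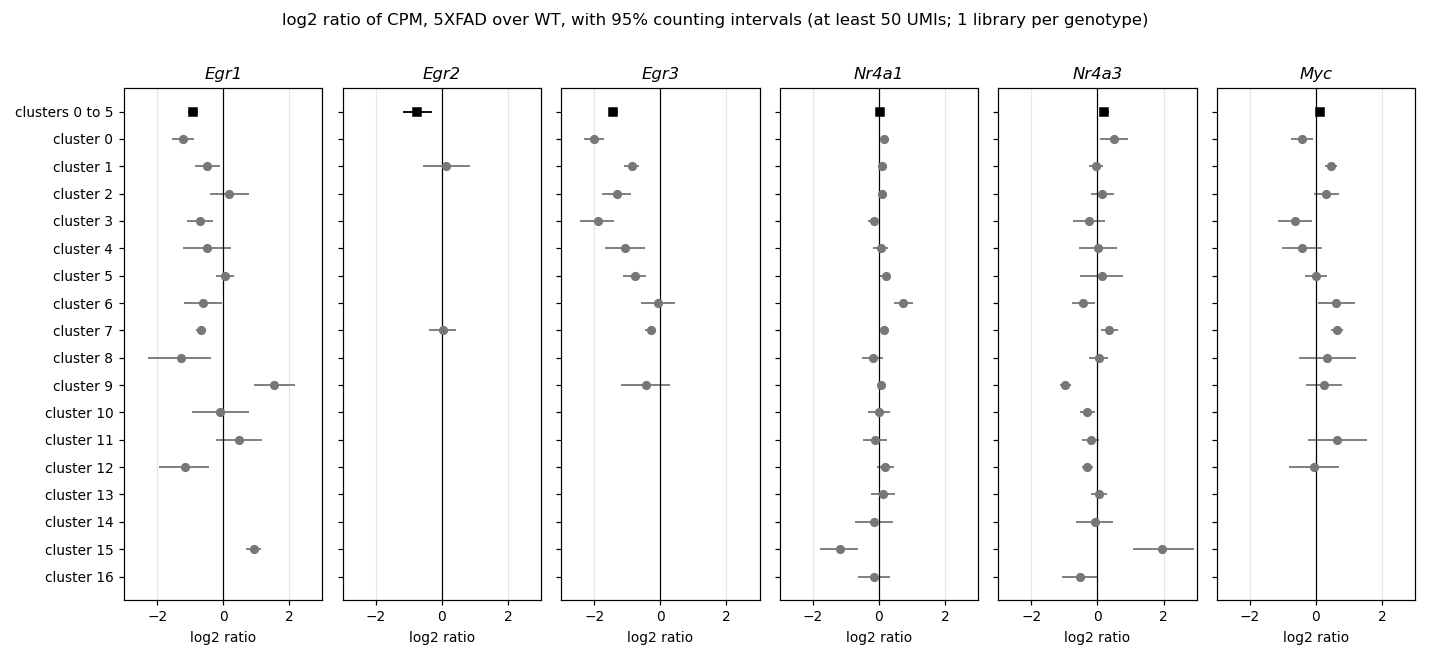
Log2 ratio of CPM, 5XFAD over WT (x axis), of each gene in clusters 0 to 5 summed (black squares) and in each cluster (grey points) where it had at least 50 UMIs, with 95% intervals of counting error. Egr3 lies left of 0 in each of clusters 0 to 5, Egr1 ranges from -1.29 in cluster 8 to 1.52 in cluster 9, and Nr4a3 is at -0.97 in cluster 9.

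Within the 6 B cell-like clusters the Egr3 difference recurred in each. Cluster 0 had 41.8 CPM in 5XFAD and 167 CPM in WT (-2.0, -2.30 to -1.71), with a UMI in 14.7% of 5XFAD and 42.0% of WT cells. Cluster 3 had 25 CPM in 5XFAD and 93.4 CPM in WT (-1.90). The ratios of clusters 2, 4, 1 and 5 were -1.31, -1.06, -0.87 and -0.77, and all 6 intervals lay below 0. Egr1 was less even. Its ratios were -1.22 in cluster 0, -0.70 in cluster 3, -0.50 in cluster 4, -0.48 in cluster 1, 0.05 in cluster 5 and 0.18 in cluster 2, and 3 of the 6 intervals lay below 0. Egr2 had enough UMIs for a ratio in cluster 1 only, with 45 UMIs in 5XFAD and 29 in WT (0.13, -0.58 to 0.85). By CPM it was lower in 5XFAD in 4 of the 6 clusters, so its lower summed level was not resolved cluster by cluster. Nr4a1 ranged from -0.16 in cluster 3 to 0.21 in cluster 5 and Nr4a3 from -0.26 in cluster 3 to 0.50 in cluster 0. Myc was lower in cluster 3 (-0.62, -1.14 to -0.12) and cluster 0 (-0.42, -0.75 to -0.08) and higher in cluster 1 (0.45, 0.27 to 0.63), and the mean of its 6 ratios was -0.11 where the summed ratio was 0.13.

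The number of genes lower by at least 1 was 2 of 5 measured in cluster 0 (Egr1 and Egr3) against 3.85% of all genes there, and 1 of 5 (Egr3) in cluster 2 against 1.67%, in cluster 3 against 4% and in cluster 4 against 3.17%. In clusters 1 and 5 it was 0 of 6 against 2.44% and 0 of 5 against 5.56%. The heat shock genes Hspa1a and Hspa1b and the AP-1 gene Jun led cluster 5, whose size was 119 cells (5XFAD) and 396 cells (WT). Without cluster 5 the Egr3 ratio was -1.36 and that of Egr1 -0.75. Of the 10 heat shock genes, 10 were lower in 5XFAD clusters 0 to 5, with a median of -0.65, against 61.9% lower and -0.12 for all genes. Hspa1a had 16.7 CPM (5XFAD) and 108 CPM (WT). B cell markers, 7 of 7 detected in both libraries, summed to 4533 CPM in 5XFAD and 5632 CPM in WT. Of these, Cd79a was higher in 5XFAD in each of clusters 0 to 5 (2033 and 1914 CPM in cluster 0). Ighm was lower in each (1334 and 2024 CPM in cluster 0). The part of heat shock genes or of B cell markers in the Egr ratios was not tested.

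Ratios in these libraries also followed transcript length. When the genes of clusters 0 to 5 were split into 5 equal groups by their longest transcript, the median log2 ratio was 0.16 in the shortest group and then -0.00, -0.13, -0.21 and -0.37 towards the longest. Nr4a1 and Myc, at 2553 and 2338 bases, were in the second group, and Egr2 at 2965 bases in the middle one. Egr1 and Egr3, at 4484 and 3940 bases, were in the fourth group, whose median was -0.21, and their ratios were -0.91 and -1.42. Nr4a3, at 5720 bases, was in the longest group and had a ratio of 0.21. From the shortest to the longest group the medians ran from 0.22 to -0.47 in cluster 7 and from 0.19 to -0.26 in cluster 9. In cluster 7 Egr1 was in the fourth group (-0.22) and Myc in the second (0.07). In cluster 9 Egr1 was in the fourth (-0.14) and Nr4a3 in the longest. The part of length in the ratios of any of these clusters was not tested.

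In cluster 7, Egr1 and Egr3 were lower and Myc was higher in 5XFAD. Of the 6 genes 0 were lower by at least 1, against 4.45% of 3323 genes, and 0 were higher by that much, against 1.5%, so no difference reached 2-fold. Egr1 had 638 UMIs in 77 of 126 5XFAD cells and 932 UMIs in 85 of 126 WT cells, or 883 CPM in 5XFAD and 1403 CPM in WT (-0.67, -0.81 to -0.52). Egr3 had 768 CPM in 5XFAD and 936 CPM in WT (-0.28, -0.45 to -0.12), and Egr2 had 152 CPM in 5XFAD and 149 CPM in WT (0.03, -0.37 to 0.44), or a ratio of -0.43 after thinning.

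Myc was higher in 5XFAD cluster 7, with 658 UMIs in 107 of 126 5XFAD cells and 392 UMIs in 97 of 126 WT cells. Its level was 911 CPM in 5XFAD and 590 CPM in WT, a log2 ratio of 0.63 (0.44 to 0.81). Nr4a3 had 393 CPM in 5XFAD and 306 CPM in WT (0.36, 0.10 to 0.63) and was detected in 70.6% of 5XFAD and 55.6% of WT cells. Nr4a1 had 1475 CPM in 5XFAD and 1335 CPM in WT (0.14, 0.01 to 0.27). The intervals of Egr1 and Egr3 lay below 0, those of Myc, Nr4a1 and Nr4a3 above, and that of Egr2 held 0. The T cell, macrophage and ILC marker sums in this cluster were each below 30 CPM in both libraries. B cell markers summed to 3776 CPM (5XFAD) and 4812 CPM (WT), a sum lower in 5XFAD too. Of the B cell markers Cd79a alone was higher in 5XFAD (1750 and 1604 CPM), and Ighm was at 741 and 1242 CPM. Plasma cell markers summed to 728 CPM (5XFAD) and 698 CPM (WT) and stromal or endothelial markers to 29.1 and 60.2 CPM. Gamma delta T cell, neutrophil and mast cell markers were at 0. The part of these cell types in the ratios was not tested.

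Other genes of the same pathways were read in the same 2 groups of cells. Antigen receptor induced genes had a median ratio of 0.35 in cluster 7, 12 of 15 above 0, where all genes had a median of -0.08 and 55.8% of them were lower. The highest were the chemokine genes Ccl4 (418 CPM in 5XFAD and 117 CPM in WT, 1.83) and Ccl3 (119 and 39.1 CPM, 1.61). A single 5XFAD cell carried 121 of the 302 Ccl4 UMIs, and the Ccl4 ratio was 1.46 without each library's top cell. The lowest were Cd69, a retention receptor of recently activated cells (449 and 853 CPM, -0.93), and the homing receptor gene Ccr7 (723 and 880 CPM, -0.28). Across clusters 0 to 5, 13 of 17 genes were lower, with a median of -0.26 against -0.12 and 61.9% lower for all genes. Without cluster 5, 11 of 17 were lower with a median of -0.13, against 62.3% and -0.12 for all genes, so the list was then at the background. With cluster 5 kept, Ccl3 (-1.43) and Cd69 (150 CPM in 5XFAD and 361 CPM in WT, -1.27) were lowest, and Bcl2a1d (0.50) and Bcl2a1b (0.40), which encode survival factors and are near-identical paralogs whose reads may be split uncertainly, were highest.

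MYC target genes were mostly higher in 5XFAD in both groups. Of all genes 55.8% were lower in cluster 7 (median -0.08) and 61.9% in clusters 0 to 5 (median -0.12). In cluster 7, 15 of 19 were higher, with a median of 0.37, from Nop16, a ribosome assembly gene (67.8 CPM in 5XFAD and 27.1 CPM in WT, 1.32), and Eif4e (0.69) down to Srm (-0.12) and Hspe1 (-0.25). Across clusters 0 to 5 the same was true for 16 of 20, with a median of 0.29, from Nop16 (0.82) and the polyamine enzyme gene Odc1 (245 CPM in 5XFAD and 146 CPM in WT, 0.75) down to Hspe1 (-0.17) and Hspd1 (-0.41). Those last 2 encode mitochondrial chaperonins and are heat shock genes as well. The list's median was above 0 in clusters 0 to 5 while Myc itself had a ratio of 0.13. The part of transcript length in the ratios of this list was not tested. Of the partners and antagonists of MYC, 7 of 8 were below 0 in clusters 0 to 5 (median -0.30), against 61.9% of all genes, with Mga, a repressor of E-box genes, at 67.8 CPM (5XFAD) and 115 CPM (WT) (-0.76) and Mxd4 at -0.39 lowest, and Mxi1 at 0.23 and Mxd1 at -0.16 highest. In cluster 7, 4 of 5 were below 0 (median -0.18), against 55.8% of all genes, with Mga at -0.79 and Mlxip at -0.22 lowest and Max, the obligate partner of MYC, at 0.08 and Mxd1 at -0.04 highest.

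A further list holds other immediate early genes, among them AP-1 subunit genes such as Fos and Jun, and the serum response factor gene Srf. In clusters 0 to 5, 8 of 13 were lower (median -0.22), close to the 61.9% of all genes, and 4 were lower by at least 1, or 2 without cluster 5. The list ran there from Jun (69.9 CPM in 5XFAD and 406 CPM in WT, -2.54) and Fosb (-2.12) to Srf (0.05) and Ier2 (0.43). In cluster 7, 9 of 12 were lower (median -0.44), against 55.8% of all genes, with Fosb (191 CPM in 5XFAD and 611 CPM in WT, -1.68) and Jun (-1.60) lowest and Fosl2 (0.35) and Junb (0.13) highest. Of the MAP kinase and calcium brakes, which include the dual-specificity phosphatases that switch off MAP kinases, 7 of 9 were lower in clusters 0 to 5 (median -0.54) and 4 of 6 in cluster 7 (median -0.49), against 61.9% and 55.8% of all genes. Dusp5 (0.64) and Dusp2 (0.49) were highest and Dusp6 (-0.93) and Dusp10 (-0.80) lowest in clusters 0 to 5. In cluster 7 Dusp2 (0.26) and Dusp5 (0.06) were highest and Nfatc1, encoding a calcium-activated factor (69.2 CPM in 5XFAD and 209 CPM in WT, -1.60), and Dusp4 (-0.57) lowest.

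The nearest relatives and corepressors were few. Nr4a2, the remaining NR4A gene, had 53.5 CPM in 5XFAD and 40.4 CPM in WT clusters 0 to 5 (0.41, 0.24 to 0.58) and 364 CPM in 5XFAD and 217 CPM in WT cluster 7 (0.75, 0.45 to 1.05). Nab1 and Nab2, which encode corepressors that bind EGR proteins, were at -0.25 and -0.05 in clusters 0 to 5 and at -0.07 and 0.58 in cluster 7, the last 2 with intervals that held 0. Egr4 had 0 UMIs in these cells. Heat shock genes were below 0 in 7 of 7 measured in cluster 7 (median -0.38), against 55.8% of all genes. Hsph1 (-2.04) and Dnajb1 (-0.62) were lowest there and Hspe1 (-0.25) and Hsp90ab1 (-0.24) highest. In clusters 0 to 5 Hspa1a (-2.69) and Hspa1b (-2.53), near-identical genes, were lowest, and Hsp90ab1 (-0.40) and Hspe1 (-0.17) highest.

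**Figure D4:**
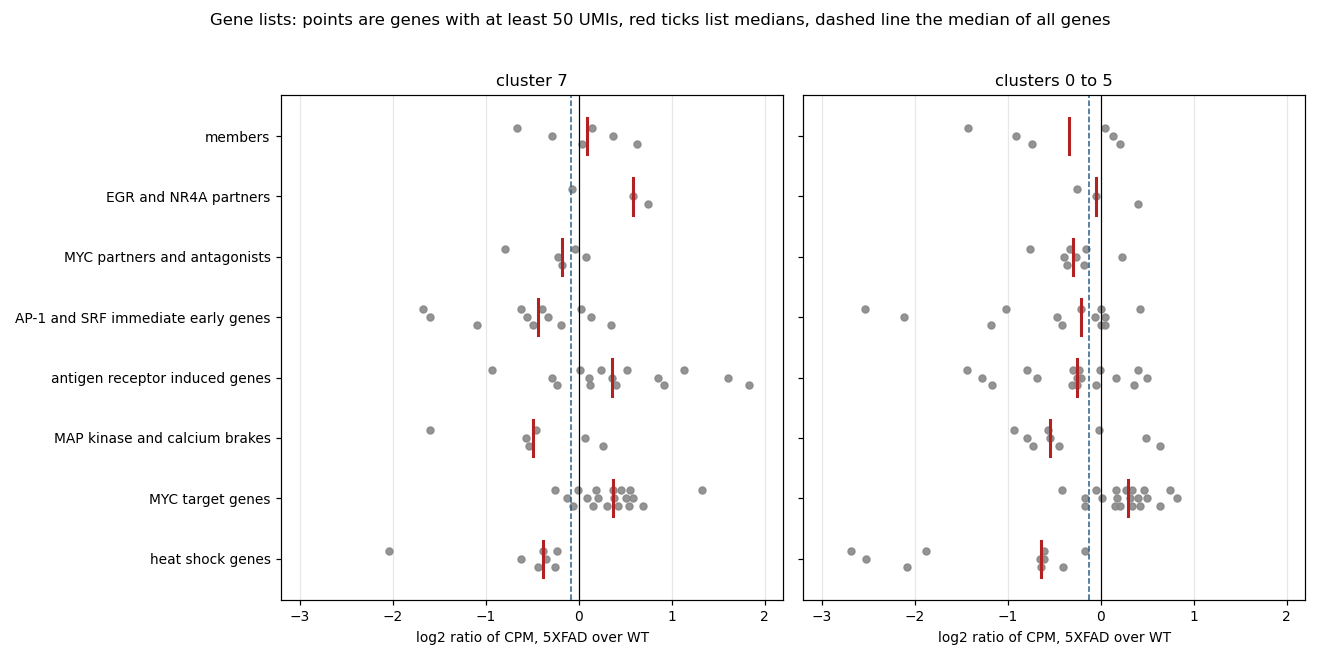
Log2 ratio of CPM, 5XFAD over WT (x axis), of each gene with at least 50 UMIs (points) in the 6 genes described here and 7 related lists, in cluster 7 (left) and clusters 0 to 5 (right), with list medians (red ticks) and the median of all genes (dashed). Antigen receptor induced genes have a median of 0.35 in cluster 7 and of -0.26 in clusters 0 to 5, and MYC target genes of 0.37 and 0.29.

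Among the other lymphocytes, Nr4a3 and Egr1 differed most in the ILC2-like cluster 9 (129 cells in 5XFAD and 108 in WT), which was led by Il5, Il13 and Il4. Nr4a3 had 519 UMIs in 86 5XFAD cells and 923 UMIs in 86 WT cells, or 694 CPM in 5XFAD and 1358 CPM in WT (-0.97, -1.13 to -0.81). Nr4a2 was lower too, with 201 CPM in 5XFAD and 331 CPM in WT (-0.72, -1.03 to -0.42), while Nr4a1 was level, with 1139 CPM (5XFAD) and 1080 CPM (WT) (0.08, -0.07 to 0.22). Egr1 went the other way, with 98 UMIs in 29 5XFAD cells and 31 UMIs in 16 WT cells, 131 CPM against 45.6 CPM (1.52, 0.93 to 2.16). The top cell held 17.3% of its UMIs in 5XFAD and 16.1% in WT. Egr1 made up the 1 of 5 measured genes higher by at least 1, against 1.32% of all genes in that cluster, and 0 of 5 were lower by that much, against 1.84%.

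In the same cluster the AP-1 list was split, 6 higher and 6 lower of 12, from Zfp36, encoding an mRNA decay factor (412 CPM in 5XFAD and 262 CPM in WT, 0.65), and Ier2 (0.63) to Fosl2 (-0.48) and Fosb (1799 and 2550 CPM, -0.50). Of all genes 51.8% were lower there. MYC target genes were lower in 11 of 16 (median -0.09), with Ldha (0.65) and Eif5a (0.42) highest and Nop58 (-0.66) and Mybbp1a (-1.08) lowest. Antigen receptor induced genes were lower in 7 of 12 (median -0.10), near the share of all genes, and all genes had a median of -0.02. ILC2 markers summed to 3242 CPM in 5XFAD and 3199 CPM in WT, and B cell markers to 143 and 243 CPM.

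Over all T and innate lymphoid clusters (755 cells in 5XFAD and 628 in WT) Nr4a3 had 544 CPM in 5XFAD and 714 CPM in WT (-0.39, -0.47 to -0.31), while Nr4a1 (454 and 445 CPM, 0.03), Egr1 (62.9 and 60.03 CPM, 0.07) and Myc (48.2 and 42.0 CPM, 0.20) had intervals that held 0. Egr3 had 13.8 CPM in 5XFAD and 21.0 CPM in WT (-0.61, -1.12 to -0.10). B cell markers in these clusters summed to 127 CPM in 5XFAD and 356 CPM in WT, lower in 5XFAD like Egr3, and their part in that ratio was not tested. None of 5 measured genes was lower by at least 1, against 1.3% of all genes, or higher, against 0.882%. Any Egr gene was detected in 16.01% of 5XFAD and 15.2% of WT cells after thinning (21.7% and 24.2% without), so the gap seen in clusters 0 to 5 was not seen here. The difference between these gaps was not tested.

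By cluster, Nr4a3 was lower in the NK cell or ILC1-like cluster 12 (921 CPM in 5XFAD and 1137 CPM in WT, -0.30, -0.48 to -0.13) and the T cell-like cluster 10 (455 and 562 CPM, -0.31, -0.53 to -0.08). In the regulatory T cell-like cluster 8 (387 and 378 CPM, 0.03) and the gamma delta T cell-like cluster 13 (828 and 805 CPM, 0.04) it was level, with intervals that held 0. Egr1 was lower in cluster 8, with 15 UMIs (5XFAD) and 35 UMIs (WT) (-1.29, -2.27 to -0.38), 1 of 4 measured genes against 2.56% of all genes. It was also lower in cluster 12, with 24 UMIs in 5XFAD and 47 in WT (-1.17, -1.94 to -0.43), 1 of 4 against 1.57%. In WT cluster 12, 1 cell held 31.9% of Egr1 UMIs. Leaving out 10 top cells per library gave a ratio of -0.23. The UMIs left were fewer than the minimum set for a ratio, so that value does not show whether the difference shrinks. In cluster 6, Nr4a1 had 353 CPM in 5XFAD and 212 CPM in WT (0.73, 0.46 to 1.02) and Myc 89.2 and 58.6 CPM (0.61, 0.06 to 1.17), while Egr3 was level (75.6 and 79.5 CPM, -0.07). Nr4a3 had 141 CPM in 5XFAD and 188 CPM in WT in that cluster (-0.42, -0.77 to -0.07), or a ratio of 0.23 when the 10 top cells per library were left out. Germinal centre B cell markers summed to 40.7 CPM (5XFAD) and 100 CPM (WT) in cluster 6 and regulatory T cell markers to 16.5 and 76.7 CPM, and their part in these ratios was not tested. There 0 of 5 passed 1 in either direction, against 2.45% (lower) and 1.58% (higher).

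Cluster 15, with 32 cells in 5XFAD and 37 in WT, held the highest Egr1 level in 5XFAD and by the mean of both libraries. In WT alone cluster 7 was higher, at 1403 CPM. Egr1 had 422 UMIs in 5XFAD and 258 in WT (2213 and 1168 CPM, 0.92, 0.70 to 1.15). The UMIs sat in few cells, with 95.7% in the top 10 cells of 5XFAD and 89.9% in those of WT. Of the 422 UMIs in 5XFAD, 370 were in 10 cells whose leading markers were stromal or endothelial, and of the 258 in WT, 146 were in 5 such cells. Cells led by macrophage markers held 49 Egr1 UMIs in 16 5XFAD cells and 110 in 24 WT cells. Stromal or endothelial markers summed to 477 CPM in 5XFAD and 267 CPM in WT, macrophage markers to 4893 and 7795 CPM, and neutrophil markers to 0 in 5XFAD and 1150 CPM in WT. Without the 10 top cells of each library the Egr1 ratio was -0.34. The UMIs left were fewer than the minimum set for a ratio, so the direction outside those cells was not resolved. Nr4a1 had 36 UMIs in 5XFAD and 95 in WT (-1.19, -1.78 to -0.62) and Nr4a3 47 and 14 (1.96, 1.07 to 2.94), 46.8% of the 5XFAD UMIs of Nr4a3 being in 1 cell. These are 1 of 3 measured genes lower by at least 1, against 12.3% of all genes, and 1 of 3 higher, against 7.19%.

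Across 33 cluster and library sums of at least 20 cells, the genes whose levels were most like each of these were found among 8157 genes by Pearson r of log2(CPM + 10). The sums share their libraries, depth and clustering, so r is a description with no p. For Egr3 they were Ciart, a circadian repressor gene (0.88), Sec24a (0.87) and Il4i1, an amino acid oxidase gene (0.86). Egr2 was closest to Egr3 itself (0.79) and then, among other genes, to Il4i1 (0.74), Osgin2 (0.69) and Atad3a (0.69). Egr1 was closest to Zfp36 (0.79), Gadd45g (0.77) and Pigr, the epithelial immunoglobulin receptor gene (0.77). Myc was closest to Ciart (0.79), Mreg (0.78) and Sec24a (0.78). Nr4a1 was closest to Nfkbid, encoding an inhibitor protein of NF-kappaB (0.84), Arl5b (0.80) and Susd6 (0.77), and Nr4a3 to Ccnd2, cyclin D2 (0.93), Elovl5 (0.91) and Cdc37 (0.91). Nr4a3 and Egr3 ran opposite, with r of -0.38.

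Over the 31 sums without cluster 7, Egr1 was closest to the stromal gene Dcn (0.85), to Car1 (0.85) and to Fabp4 (0.84). Egr2 was closest to Rufy3 (0.71), Tfeb (0.70) and Nfam1 (0.70), and Egr3 to Fgd2 (0.88), to Ciita, the MHC class II activator (0.87), and to Pik3c2b (0.86). Nr4a1 was closest to Susd6 (0.84), Nfkbid (0.75) and Hilpda (0.73). Nr4a3 was closest to Sytl3 (0.94), Id2, a factor of innate lymphoid cells (0.93), and Fosl2 (0.93), and Myc to Pdcd1lg2 (0.71), Anp32b (0.70) and Rad23b (0.69). Without cluster 7 the r of Nr4a3 and Egr3 was -0.63 and that of Myc and Egr1 0.05.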

How the data were processed

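Droplet 3′ single-cell RNA-seq was made from sorted CD45+ colon cells, 1 library per genotype. The submitters' processing notes name Cell Ranger 6.0.1 and mm10. The sources used here do not give cell filters, doublet removal or clustering settings, and no doublet caller was run. The deposited table holds natural log values, ln(1 + UMIs per 10000), made by the authors. Counts were recovered from it with the deposited total count per cell, and 100% of 11758401 values were whole within 1e-06. The deposited SCT table also holds natural log values and was an alternative. The deposited percent of mitochondrial UMIs had class medians of 2.70 to 5.98. AD in the metadata was taken as 5XFAD.

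UMIs were summed per library and group of cells and scaled to CPM. Intervals were exact: Poisson for levels, conditional binomial for ratios and Clopper-Pearson for shares, at 95%. Python 3.11.15, numpy 2.4.6, scipy 1.17.1 and pandas 2.3.3 were used, and the interval code was tested on simulated data. The members and all lists were chosen with earlier results of these data known. Named were the 6 genes, for each the 3 genes with the highest r (at least 200 UMIs, sums of at least 20 cells), and per list the 2 highest and 2 lowest ratios among genes with at least 50 UMIs. Promoter windows came from RefSeq and lengths and loci from GENCODE M21. Alternatives changed the scaling, thinned cells, left out top cells, cells of 2500 or more genes or cluster 5, weighed cells or clusters equally, lowered the minimum to 10 UMIs and used the SCT table. Leaving out the 10 top cells was added after seeing the data.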

Additional observations from a re-analysis of the deposited data

Results flagged for a closer look

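Some genes had ratios of opposite direction in different cells, each with an interval off 0, and the difference between the cells was not tested. Egr1 had a log2 ratio of 1.52 (0.93 to 2.16) in cluster 9 and of -0.91 (-1.06 to -0.75) in clusters 0 to 5. Nr4a1 had 0.73 (0.46 to 1.02) in cluster 6 and -1.19 (-1.78 to -0.62) in cluster 15. Nr4a3 had 1.96 (1.07 to 2.94) in cluster 15, where 22 of 47 5XFAD UMIs were in 1 cell, and -0.97 (-1.13 to -0.81) in cluster 9. Intervals cover counting error only, and each ratio compares 1 library with 1.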

How the results depend on the processing

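In clusters 0 to 5, leaving out cluster 5 gave log2 ratios of -0.75 for Egr1, 0.13 for Nr4a1 and 0.32 for Myc. Weighing clusters 0 to 5 equally gave -0.44 for Egr1 and turned Myc to -0.11. Median-of-ratios scaling gave 0.17 for Nr4a1 and 0.25 for Myc. Without the 10 top cells of each library Egr1 was at -1.21. In cluster 7, thinning gave -0.43 for Egr2, and leaving out the 10 top cells gave -0.87 for Egr1 and 0.63 for Nr4a3. That setting also gave -0.34 for Egr1 in cluster 15, from fewer UMIs than the minimum set for a ratio, and turned Nr4a3 in cluster 6 to 0.23. With a minimum of 10 UMIs the number of genes lower by 1 was 1 in cluster 10 and 1 in cluster 16, where it had been 0, and 2 were higher in cluster 15, where it had been 1. The larger number of genes measured brings these in. The 24 counts compared were those of clusters 0 to 5 summed and of clusters 6 to 16, and the counts within each of clusters 0 to 5 were not rerun. Egr2, below 50 UMIs there, had 3.16 CPM (5XFAD) and 10.6 CPM (WT) in cluster 0 but 2.86 and 2.47 CPM in cluster 2. The cause of the other shifts was not tested. The SCT table, equal weight per cell, leaving out the top cell and leaving out cells of 2500 or more genes moved none of the 12 ratios of clusters 0 to 5 and cluster 7 past its interval. Egr3 stayed within its interval under all alternatives run in clusters 0 to 5 and cluster 7. Of the 34 ratios of the other clusters, 1 moved without cells of 2500 or more genes. Without the 10 top cells, 7 of 32 moved and 2 more changed direction. Of 204 levels, 12 moved with thinning and 26 without the top cell. No paired analysis was possible because each genotype has 1 library.

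With 1 library of 3 pooled mice per genotype, no difference here has a replicate check. Egr2 in most clusters and Egr3 in the T and innate lymphoid clusters rest on few UMIs, and except for Egr1 in cluster 15 every gene in clusters 14 to 16 rests on 95 UMIs or fewer per library.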

Other observations

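In the NK cell or ILC1-like cluster 12, 5 of 7 MAP kinase and calcium brakes were higher in 5XFAD (median 0.34, against -0.04 and 53.7% lower for all genes). Dusp2, a phosphatase gene for nuclear MAP kinases, had 127 CPM in 5XFAD and 63.7 CPM in WT (1.0, 0.37 to 1.65) and Dusp10 60.9 and 35.0 CPM (0.80, -0.08 to 1.73). Dusp1 had 374 CPM in 5XFAD and 543 CPM in WT (-0.54, -0.80 to -0.27) and Nfatc1 149 and 212 CPM (-0.51, -0.95 to -0.08).

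In cluster 6, 16 of 18 MYC target genes were higher in 5XFAD (median 0.32, against -0.01 and 51.1% lower for all genes). Odc1, the rate-limiting polyamine enzyme gene, had 1607 CPM in 5XFAD and 838 CPM in WT (0.94, 0.80 to 1.08) and Nop16 36.8 and 18.1 CPM (1.02, 0.08 to 2.06). The lowest were Nop56 (-0.02) and Hspd1 (-0.01), both with intervals that held 0.

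In the regulatory T cell-like cluster 8, Odc1 had 4352 CPM in 5XFAD and 2846 CPM in WT (0.61, 0.52 to 0.70) and Eif5a 401 and 263 CPM (0.61, 0.30 to 0.91), the 2 highest of 17 MYC target genes. The lowest were Mybbp1a with 39.2 CPM in 5XFAD and 48.4 CPM in WT (-0.30, -1.17 to 0.55) and Nolc1 with 56.3 and 66.3 CPM (-0.24, -0.96 to 0.48). Of the 17, 8 were higher and 9 lower (median -0.02), against 52.3% of all genes lower. These groups are descriptions of 2 libraries.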
